A study of Homo sapiens with 9 samples.

Results

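The genes described here are 10 regulators of the G1 phase of the cell cycle, of the 42717 genes in the count table. They were chosen by name, with earlier results of these data known: the D-type cyclins CCND1, CCND2 and CCND3, the E-type cyclins CCNE1 and CCNE2, the kinases CDK6 and CDK2, and the CDK inhibitors CDKN1B (p27), CDKN2A (p16INK4a and p14ARF) and CDKN2B (p15INK4b). Their transcripts were counted by RNA sequencing (RNA-seq) in S2-007, S2-028 and S2-020 cells, which are sublines derived from SUIT-2, a human pancreatic ductal adenocarcinoma cell line. In the study, maspin, a serine protease inhibitor, lay in the nucleus and the cytoplasm of S2-007 cells and in the cytoplasm of S2-028 cells, and S2-020 served as a line with little maspin of its own. All 3 lines were untreated and grew in DMEM with serum, and each had 3 libraries, 9 in all. Each group is a single subline, so a difference between groups is a difference between these sublines and cannot be told apart from any other feature in which they differ. The labels do not say whether the libraries of a line came from separate cultures, so p-values measure only the spread between these libraries, which may be technical.

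In G1, D-type cyclins bind CDK4 and CDK6, and the complexes phosphorylate the retinoblastoma protein RB, which holds back the E2F transcription factors. E2F activity then raises E-type cyclins, which bind CDK2, phosphorylate RB further and start DNA replication. The INK4 inhibitors p15 and p16 bind CDK4 and CDK6 alone and keep D-type cyclins off them, whereas p27 of the CIP/KIP family binds complete cyclin and CDK complexes. Loss of p16 is among the most frequent alterations of pancreatic ductal adenocarcinoma.

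CCND1, CCND3, CCNE1, CCNE2, CDK2 and CDKN1B had higher transcript levels in S2-020 than in S2-007, by between 1.59- and 2.87-fold. CDK6 stood apart from them, since its level was raised in S2-028 alone, 2.78-fold over S2-007 and 2.56-fold over S2-020. CDK2 was higher in both S2-020 and S2-028 than in S2-007. CCND2 and CDKN2B had few counts in all 9 libraries, at most 38 and 25, and CDKN2A was low and differed by less than the fold change threshold.

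The sequence before the start site is shown for 3 of these genes, all with a window free of annotated exons. They are CCNE1 and CDKN1B, which were highest in S2-020, and CDK6, which was highest in S2-028. The pattern of CDK2 is not represented. Each run holds the 250 bases upstream of the RefSeq start site in GRCh38.p14, written 5′ to 3′ on the strand of the gene. Capitals mark the GC box (GGGCGG, the letters bound by the SP1 family) and the CCAAT box (CCAAT), searched on both strands, and the motifs did not overlap each other. CCNE1 lies on the plus strand at chr19:29811741-29811990, CDKN1B on the plus strand at chr12:12717118-12717367 and CDK6 on the minus strand at chr7:92836574-92836823.
CCNE1: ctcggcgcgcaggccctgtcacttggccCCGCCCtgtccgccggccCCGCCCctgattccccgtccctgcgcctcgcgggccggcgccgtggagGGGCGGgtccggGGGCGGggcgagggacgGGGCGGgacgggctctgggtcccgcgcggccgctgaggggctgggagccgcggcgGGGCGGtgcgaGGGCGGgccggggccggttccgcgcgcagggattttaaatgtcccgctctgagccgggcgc
CDKN1B: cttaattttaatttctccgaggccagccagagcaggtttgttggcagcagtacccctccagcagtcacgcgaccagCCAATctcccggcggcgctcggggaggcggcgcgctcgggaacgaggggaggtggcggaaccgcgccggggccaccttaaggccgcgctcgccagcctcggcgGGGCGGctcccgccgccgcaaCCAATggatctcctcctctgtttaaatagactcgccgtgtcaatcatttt
CDK6: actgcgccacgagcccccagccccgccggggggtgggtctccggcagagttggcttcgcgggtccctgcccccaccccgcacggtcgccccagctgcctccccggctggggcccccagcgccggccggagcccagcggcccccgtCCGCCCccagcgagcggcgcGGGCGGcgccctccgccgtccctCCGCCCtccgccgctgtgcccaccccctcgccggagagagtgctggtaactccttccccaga
The window of CCNE1 held 7 GC boxes, that of CDK6 held 3 and that of CDKN1B held 1. CDKN1B was the only one of the 3 with a CCAAT box, of which it held 2. Among all 27305 promoters of the same length in the table, 42.3% held a GC box and 33.0% a CCAAT box, and both motifs were chosen after these sequences had been seen. CCND1, CCND2, CCNE2 and CDK2 had no entry in the promoter table. The windows of CCND3, with 5 GC boxes, and CDKN2A, with 0, overlapped annotated exons and are not shown. That of CDKN2B, a gene with few counts, held 2 GC boxes and is not shown either. None of these windows held a CCAAT box.

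The total count was between 60328748 and 86253923 per library, and levels are given as CPM, the read count scaled to the size of its library. The chi-square statistic per gene was between 7.26 and 19.1 for libraries of the same line and between 178 and 271 for libraries of different lines, and no library was a copy of another. The lines carried epithelial markers, with a summed level of KRT8, KRT18, KRT19, EPCAM and CDH1 of 9318 to 9813 CPM in S2-007, 4266 to 5382 CPM in S2-020 and 14374 to 16868 CPM in S2-028. KRT8 made up the largest part of this sum, and other markers were far lower in S2-020. KRT19 had 90.2 to 116 CPM there, against 2077 to 2156 CPM in S2-007 and 1838 to 2104 CPM in S2-028. In the same order, EPCAM had 120 to 124 CPM against 515 to 542 and 405 to 430 CPM. CDH1 had 4.24 to 4.75 CPM against 52.0 to 56.8 and 104 to 117 CPM. The summed fibroblast, endothelial, acinar and endocrine markers did not exceed 9.84 CPM in any library. Leukocyte markers summed to 39.4 to 44.4 CPM in S2-007 and to 7.73 to 9.24 CPM in S2-020, nearly all of it from CD68 (9.58 to 11.3 CPM in S2-028), while PTPRC, which defines leukocytes, was at or under 0.407 CPM throughout. CPM are normalized by the trimmed mean of M-values (TMM), with mean ± SD of 3 libraries.

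**Figure D1:**
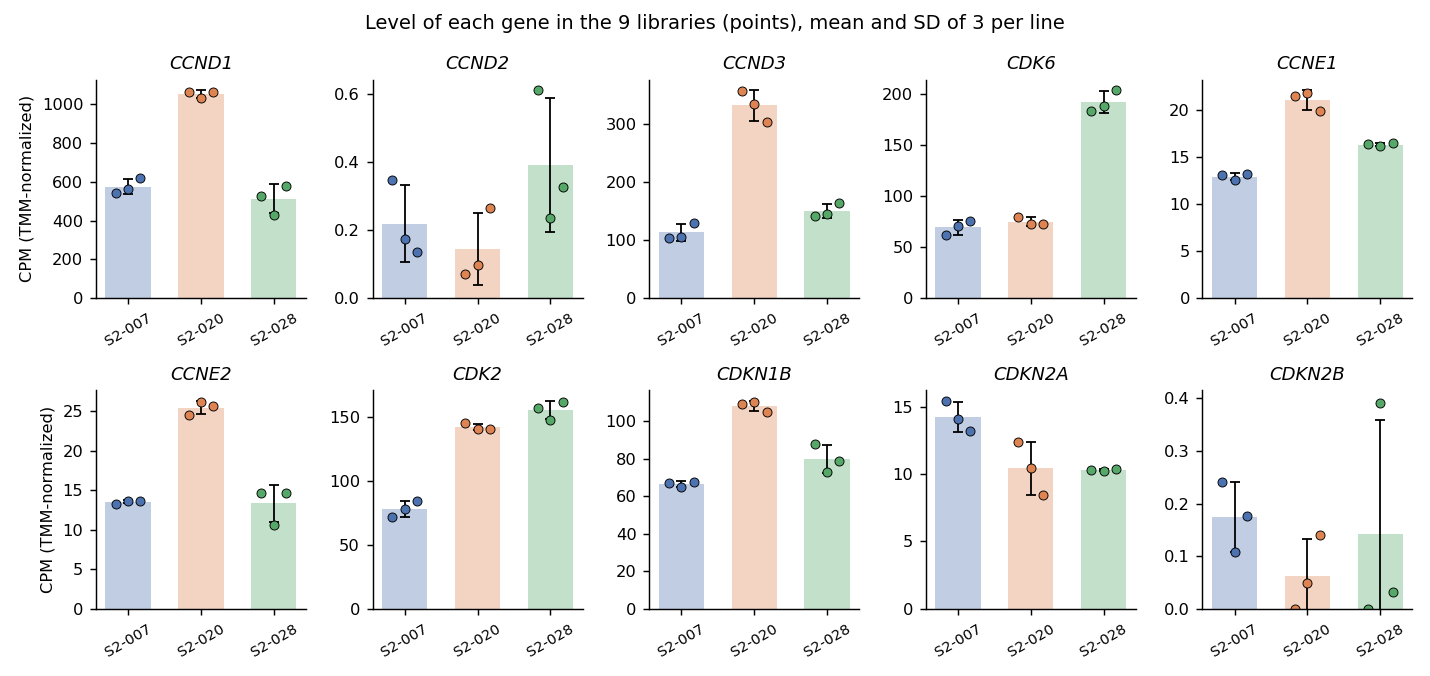
TMM-normalized CPM of the 10 genes in each of the 9 libraries (points), with the mean (bar) and SD (error bar) of the 3 libraries of each line, each gene on its own linear axis from 0. CCND1, CCND3, CCNE1, CCNE2 and CDKN1B are highest in S2-020, CDK6 is highest in S2-028, and CDK2 is lowest in S2-007.

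For each pair of lines, genes were tested with edgeR's quasi-likelihood F-test on the counts, and p-values were adjusted over all genes tested by the Benjamini-Hochberg method. A gene was called when its adjusted p was under 0.05 and its change was at least about 1.5-fold in either direction, which is the threshold of the study. Between S2-028 and S2-007, 2 of the 10 genes were called higher in S2-028 (CDK6 and CDK2) and 0 lower, where 10.2% of all 26371 genes tested were called higher and 8.19% lower. Between S2-020 and S2-007, 6 of the 10 were called higher in S2-020 and 0 lower, against 9.57% and 12.1% of 26657 genes. Between S2-028 and S2-020, 1 of the 9 genes tested was called higher in S2-028 (CDK6) and 3 lower (CCND1, CCND3 and CCNE2), against 12.1% and 10.1% of 26031 genes. As medians over the members, log2 fold changes were 0.30, 0.67 and -0.37 in the 3 comparisons, and over all genes tested they were 0.0020, -0.053 and 0.025. The comparisons share libraries pairwise, so their counts are not independent of each other. Since the 10 genes were chosen with earlier results of these data known, their shares describe them and are not a test of the set.

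**Figure D2:**
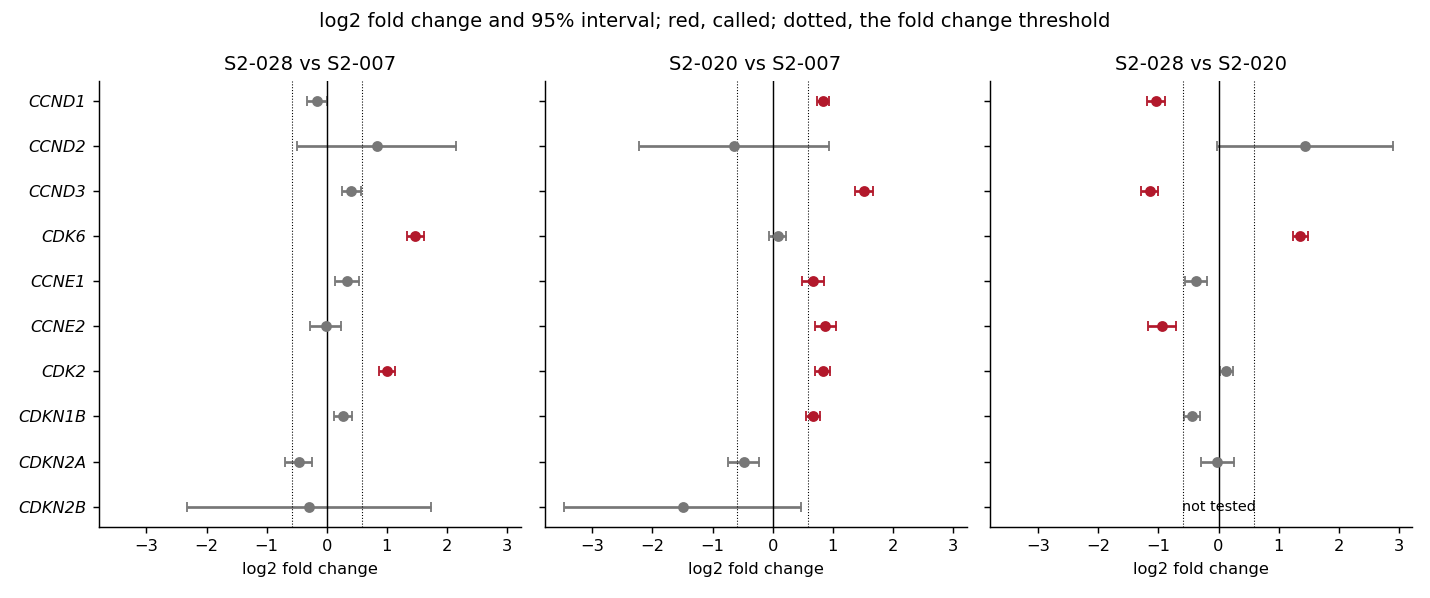
log2 fold change (point) and 95% interval (bar) of the 10 genes in the 3 comparisons, with called genes in red and the fold change threshold as dotted lines. In S2-020 against S2-007 there are 6 red points to the right of the threshold, whereas CDK6 is past it in both comparisons of S2-028.

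Of the D-type cyclins, which bind CDK4 and CDK6, CCND1 (chromosome 11, 69641156 to 69654474, plus strand, 5 exons in its MANE Select transcript) was the most abundant per kilobase of transcript. CCND1 had 543, 562 and 618 CPM in the 3 libraries of S2-007, 1065, 1031 and 1064 CPM in those of S2-020, and 529, 430 and 576 CPM in those of S2-028. All libraries of S2-020 were above all others, while those of S2-007 and S2-028 overlapped. CCND1 had a log2 fold change of 0.84 in S2-020 against S2-007 (SE 0.0479, edgeR adjusted p = 1.45e-11) and -1.04 in S2-028 against S2-020 (SE 0.0726, edgeR adjusted p = 5.24e-10). Between S2-028 and S2-007 it was -0.16, with a 95% interval from -0.33 to 0.0045 (edgeR adjusted p = 0.136). In bulk RNA, fewer cells that express a gene and less RNA of that gene in each cell cannot be told apart. LTO1, a gene on the opposite strand, overlaps 10.4% of the exon bases of CCND1, and its own level was 20.0 to 21.9 CPM on average in the 3 lines.

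CCND3 (chromosome 6, 41934933 to 42050035, minus strand), showed the widest range of line means among the 10 genes on the log2 CPM scale. CCND3 had 105, 105 and 130 CPM in S2-007, 357, 335 and 304 CPM in S2-020, and 141, 145 and 163 CPM in S2-028. No 2 lines overlapped, and the lowest library of S2-020 was far above the highest of the others. The log2 fold change of CCND3 was 1.52 in S2-020 against S2-007 (SE 0.0738, edgeR adjusted p = 1.21e-12) and -1.15 in S2-028 against S2-020 (SE 0.0648, edgeR adjusted p = 2.20e-11). Between S2-028 and S2-007 it was 0.41 (SE 0.0760, edgeR adjusted p = 0.000179), under the fold change threshold.

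CCND2, the D-type cyclin on the short arm of chromosome 12 (4273762 to 4305353), had between 5 and 38 counts per library. Its level was 0.219 ± 0.113 CPM in S2-007, 0.144 ± 0.106 CPM in S2-020 and 0.392 ± 0.197 CPM in S2-028. The libraries of the 3 lines overlapped. CCND2 passed the call in no comparison, and the edgeR adjusted p was lowest, at 0.115, between S2-028 and S2-020. Without S2-020 replicate 3 that log2 fold change was 2.21 and was called (edgeR adjusted p = 0.0475, the lowest of a range up to 0.456 over the alternatives). With all 6 libraries it was 1.44, and its 95% interval ran from -0.021 to 2.91.

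Levels were set side by side between genes after division by transcript length, here the MANE Select transcript in kilobases (kb). A count per gene pools all its transcripts, so a level per kb holds only as far as that transcript was the one used. On that scale the D-type cyclins summed to 191 ± 16.3 CPM per kb in S2-007, 413 ± 13.5 in S2-020 and 195 ± 21.6 in S2-028. The summed level of S2-020 was thus above that of both other lines, whose ranges (180 to 210 and 173 to 217) overlapped. CCND1 made up 70.9% ± 1.30 of the sum in S2-007, 60.3% ± 2.00 in S2-020 and 61.8% ± 2.92 in S2-028, and CCND3 nearly all the rest. CCND2 was at most 0.0485% of it in any library.

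**Figure D3:**
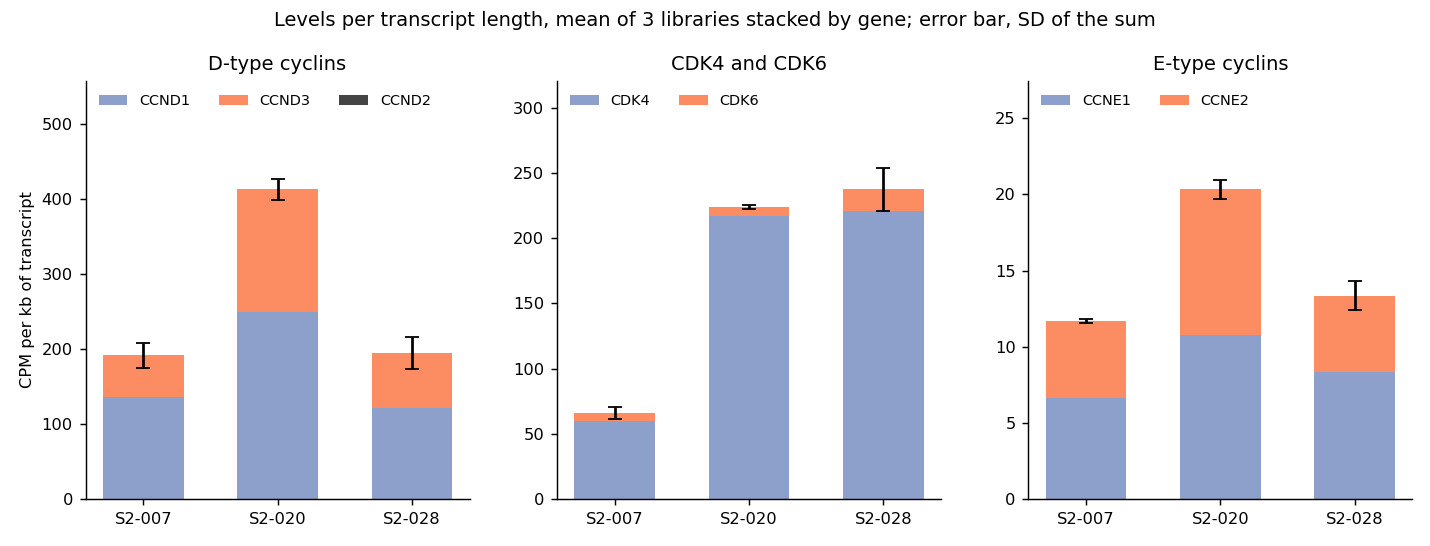
Mean CPM per kb of transcript of the D-type cyclins (left), CDK4 and CDK6 (middle) and the E-type cyclins (right) in the 3 lines, stacked by gene, with the SD of the sum over 3 libraries as the error bar and a linear axis from 0 in each panel. The D-type and E-type sums are highest in S2-020, the sum of CDK4 and CDK6 is low in S2-007 alone, and CDK6 is the smaller part of it in every line.

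CDK6 (chromosome 7, 92604921 to 92836573, minus strand, 8 exons in the MANE Select transcript) is a catalytic partner of the D-type cyclins. CDK6 had 61.8, 70.3 and 75.4 CPM in S2-007, 79.9, 72.2 and 72.9 CPM in S2-020, and 183, 189 and 204 CPM in S2-028. Every library of S2-028 was over 2-fold above every library of the other lines, which overlapped each other. CDK6 had a log2 fold change of 1.48 in S2-028 against S2-007 (SE 0.0693, edgeR adjusted p = 2.99e-13) and 1.36 against S2-020 (SE 0.0598, edgeR adjusted p = 5.13e-13). Between S2-020 and S2-007 it was 0.086, with a 95% interval from -0.055 to 0.23 (edgeR adjusted p = 0.359).

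CDK4, the other kinase of the D-type cyclins, followed another order. It averaged 112 ± 7.18 CPM in S2-007, 405 ± 2.99 CPM in S2-020 and 412 ± 30.7 CPM in S2-028, with log2 fold changes of 1.83 and 1.89 over S2-007 (edgeR adjusted p = 3.71e-16 and 3.25e-15). Per kb of transcript, CDK4 and CDK6 together reached 65.7 ± 4.41 CPM in S2-007, 224 ± 1.59 in S2-020 and 237 ± 16.7 in S2-028. CDK6 contributed 9.01% ± 0.373 of this in S2-007, 2.88% ± 0.164 in S2-020 and 6.95% ± 0.543 in S2-028. The size of these shares rests on transcript lengths of 11.663 kb for CDK6 and 1.865 kb for CDK4. The share of CDK6 was therefore highest in S2-007, although its level was highest in S2-028, and the ranges of the 3 lines (8.58 to 9.27%, 2.75 to 3.06% and 6.36 to 7.42%) did not overlap.

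Of the E-type cyclins, which activate CDK2 at the entry into S phase, CCNE1 (chromosome 19, 29811991 to 29824312, plus strand) had 13.1, 12.6 and 13.2 CPM in S2-007, 21.5, 21.9 and 19.9 CPM in S2-020, and 16.4, 16.1 and 16.5 CPM in S2-028. The 3 lines did not overlap, with S2-028 between the others. The log2 fold change of CCNE1 was 0.67 in S2-020 against S2-007 (SE 0.0860, edgeR adjusted p = 1.96e-06). It was 0.34 in S2-028 against S2-007 (edgeR adjusted p = 0.00922) and -0.37 in S2-028 against S2-020 (edgeR adjusted p = 0.00197), both under the fold change threshold. When the test was set against a 1.5-fold change in place of no change, CCNE1 was no longer called in S2-020 (edgeR adjusted p = 0.288, the highest of a range from 1.45e-13 over all alternatives).

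CCNE2 (chromosome 8, 94880224 to 94896693, minus strand) had 13.3, 13.7 and 13.6 CPM in S2-007, 24.6, 26.2 and 25.7 CPM in S2-020, and 14.7, 10.7 and 14.7 CPM in S2-028. S2-020 was above both other lines, which overlapped, and S2-028 replicate 2 was the lowest of all 9 libraries. CCNE2 had a log2 fold change of 0.88 in S2-020 against S2-007 (SE 0.0806, edgeR adjusted p = 2.02e-08) and -0.93 in S2-028 against S2-020 (SE 0.111, edgeR adjusted p = 9.09e-07). Between S2-028 and S2-007 it was -0.019 (edgeR adjusted p = 0.937), and its sign turned, to 0.12, without S2-028 replicate 2. INTS8, a gene on the opposite strand, overlaps the end of CCNE2, and 56.5% of the 31-base words of CCNE2 transcripts also occur in transcripts of INTS8 on either strand. How the authors' counting treated strand is not stated, so part of the CCNE2 counts may be reads of INTS8. INTS8 itself had mean levels of 56.6, 61.1 and 44.5 CPM in the order S2-007, S2-020, S2-028, and its log2 fold change was -0.35 in S2-028 against S2-007, 0.079 in S2-020 against S2-007 and -0.46 in S2-028 against S2-020. It was larger in size than that of CCNE2 in the first comparison and smaller in the others, and the part of INTS8 in the CCNE2 values was not tested. Per kb, both E-type cyclins together reached 11.7 ± 0.144 CPM in S2-007, 20.3 ± 0.608 in S2-020 and 13.3 ± 0.952 in S2-028, and CCNE1 made up 56.6%, 53.1% and 62.8% of these sums.

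CDK2 (chromosome 12, 55966830 to 55972789, plus strand), the kinase of the E-type cyclins, had 71.9, 78.0 and 84.6 CPM in S2-007, 145, 141 and 141 CPM in S2-020, and 157, 148 and 162 CPM in S2-028. S2-007 was below both other lines in every library. The log2 fold change of CDK2 over S2-007 was 1.00 in S2-028 (SE 0.0653, edgeR adjusted p = 6.71e-11) and 0.83 in S2-020 (SE 0.0576, edgeR adjusted p = 2.94e-10). Between S2-028 and S2-020 it was 0.13, with a 95% interval from 0.020 to 0.24 (edgeR adjusted p = 0.0559). As for CDK4, no library of S2-007 overlapped those of the other lines, whereas for CDK6 S2-007 and S2-020 overlapped. The opposite strand carries other genes, PMEL among them, over 16.8% of its exon bases. PMEL averaged 3.03, 1.32 and 5.00 CPM in the order S2-007, S2-020, S2-028, levels far under those of CDK2.

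Of the 3 inhibitors among the 10 genes, CDKN1B (chromosome 12, 12717368 to 12722369, plus strand), which encodes p27, was the most abundant per kilobase of transcript. CDKN1B had 66.9, 64.8 and 67.7 CPM in S2-007, 109, 110 and 105 CPM in S2-020, and 87.6, 72.8 and 78.7 CPM in S2-028. The lines did not overlap. S2-020 was highest, as it was for CCND1, CCND3, CCNE1 and CCNE2. The log2 fold change of CDKN1B was 0.67 in S2-020 against S2-007 (SE 0.0534, edgeR adjusted p = 2.52e-09), and it was not called against a 1.5-fold change (edgeR adjusted p = 0.115, the highest of a range from 1.36e-29 over all alternatives). It was 0.27 in S2-028 against S2-007 (edgeR adjusted p = 0.00548) and -0.44 in S2-028 against S2-020 (edgeR adjusted p = 1.48e-05), under the fold change threshold. No other annotated gene overlapped its exons.

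CDKN2A (chromosome 9, 21967752 to 21995324, minus strand) encodes p16INK4a and, from another first exon and reading frame, p14ARF, an activator of p53. A count per gene holds both transcripts, so they cannot be told apart here. CDKN2A had 15.4, 14.1 and 13.2 CPM in S2-007, 12.4, 10.4 and 8.43 CPM in S2-020, and 10.3, 10.2 and 10.3 CPM in S2-028. S2-007 was above both other lines, which overlapped, and S2-020 varied most between libraries (19.0% of its mean). CDKN2A had a log2 fold change of -0.47 in S2-028 (SE 0.111, edgeR adjusted p = 0.00193) and -0.48 in S2-020 (SE 0.125, edgeR adjusted p = 0.00384) against S2-007, both under the fold change threshold. Without S2-020 replicate 1 the latter was -0.63 and was called (edgeR adjusted p = 0.00078, within a range from 0.000204 to 1 over all alternatives). Between S2-028 and S2-020 it was -0.018 (edgeR adjusted p = 0.938), and its sign depended on the scaling and on the library left out.

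CDKN2B, which encodes p15INK4b and lies beside CDKN2A (22002903 to 22009313, minus strand), had 18, 8 and 13 counts in S2-007, 0, 4 and 10 counts in S2-020, and 0, 25 and 2 counts in S2-028. The 3 lines overlapped, and most libraries of S2-020 and S2-028 were near or under the floor of 3 counts. CDKN2B was not called against S2-007 (edgeR adjusted p = 0.870 in S2-028 and 0.240 in S2-020) and did not pass the filter on low counts between S2-028 and S2-020. A difference in CDKN2B between the lines was not detectable in these libraries. CDKN2B-AS1, the long noncoding RNA of the same locus, overlaps 15.3% of the exon bases of CDKN2A on the opposite strand, and its mean was 0.655, 0.381 and 1.05 CPM in the order S2-007, S2-020, S2-028.

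The list of other inhibitors held 5 genes. CDKN1A (p21), the CIP/KIP inhibitor induced by p53, averaged 79.7 ± 8.89 CPM in S2-007, 10.9 ± 2.43 CPM in S2-020 and 29.8 ± 3.70 CPM in S2-028, so that its log2 fold change was -2.90 in S2-020 and -1.42 in S2-028 against S2-007 (edgeR adjusted p = 4.12e-14 and 3.51e-11). CDKN2C (p18INK4c) averaged 47.1 ± 2.44, 78.6 ± 2.42 and 12.8 ± 1.81 CPM in the order S2-007, S2-020, S2-028, with a log2 fold change of -2.62 between S2-028 and S2-020 (edgeR adjusted p = 8.77e-15). Per kb of transcript, CDKN2A was therefore not the leading INK4 gene, at 14.6, 10.7 and 10.5 CPM per kb against 47.3, 79.0 and 12.8 for CDKN2C in the same order of lines. CDKN3, a phosphatase that acts on CDK2, was called higher in S2-020 than in S2-007 (0.82 on the log2 scale, edgeR adjusted p = 6.03e-09). Of the 5, 0 were called higher and 2 lower in S2-028 against S2-007, 2 higher and 3 lower in S2-020 against S2-007, and 2 higher and 2 lower in S2-028 against S2-020. Over all genes tested, 10.2%, 9.57% and 12.1% were called higher in these comparisons, and 8.19%, 12.1% and 10.1% lower. The lists that follow can be set beside the same shares.

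Downstream of these kinases, the list of RB and E2F factors held 19 genes, all tested. In S2-020 against S2-007, 4 were called higher and 0 lower, with TFDP2, a dimer partner of E2F, at 1.05 and MYBL2, a component of the complex that drives mitotic genes, at 0.71 on the log2 scale (edgeR adjusted p = 6.72e-11 and 1.79e-09). In S2-028 against S2-020, 0 were called higher and 5 lower, and all 19 had a log2 fold change below 0, with a median of -0.36. TFDP1 was at -1.09, MYBL2 at -1.02 and RB1, which encodes RB, at -0.85 (edgeR adjusted p = 4.70e-12, 1.07e-11 and 4.72e-10). RB1 averaged 95.1 ± 4.54 CPM in S2-020 and 52.6 ± 0.470 CPM in S2-028. In S2-028 against S2-007, 1 factor was called higher and 1 lower, each 5.26% of the list, beside 10.2% and 8.19% of all genes tested.

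Of 41 E2F target genes of S phase entry, 10 were called higher and 0 lower in S2-028 against S2-007, and 11 higher and 0 lower in S2-020 against S2-007, or 24.4% and 26.8% of the list. Of all genes tested, 10.2% and 9.57% were called higher in these comparisons, and 8.19% and 12.1% lower. This list was also chosen with earlier results of these data known. By adjusted p, the first in S2-028 were GINS3, a part of the replicative helicase (log2 fold change 1.55, edgeR adjusted p = 2.57e-13), UNG, a uracil glycosylase (1.13, edgeR adjusted p = 2.67e-11), and TK1, thymidine kinase (0.91, edgeR adjusted p = 1.02e-10). The first in S2-020 were CDT1, a licensing factor (0.99, edgeR adjusted p = 8.76e-12), TYMS, thymidylate synthase (0.92, edgeR adjusted p = 1.55e-11), and PRIM1, a primase subunit (1.26, edgeR adjusted p = 5.51e-11). Between S2-028 and S2-020, 2 were called higher and 4 lower, with CDC45 at 1.43 and TYMS at -0.77 on the log2 scale (edgeR adjusted p = 1.22e-11 and 1.87e-10). Of 12 mitosis markers, 0 were called in S2-028 against S2-007, 2 were called higher in S2-020 than in S2-007 (CDC20 at 0.89 and CENPF at 0.77, edgeR adjusted p = 2.09e-11 and 2.14e-10), and 4 were called lower in S2-028 than in S2-020, among them CENPF (-0.96) and PLK1 (-0.86, edgeR adjusted p = 7.56e-12 and 7.68e-11). MKI67, the usual proliferation marker, was called in no comparison, with log2 fold changes of -0.14, -0.061 and -0.11 in the order of the comparisons above (edgeR adjusted p = 0.0427, 0.334 and 0.0667).

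**Figure D4:**
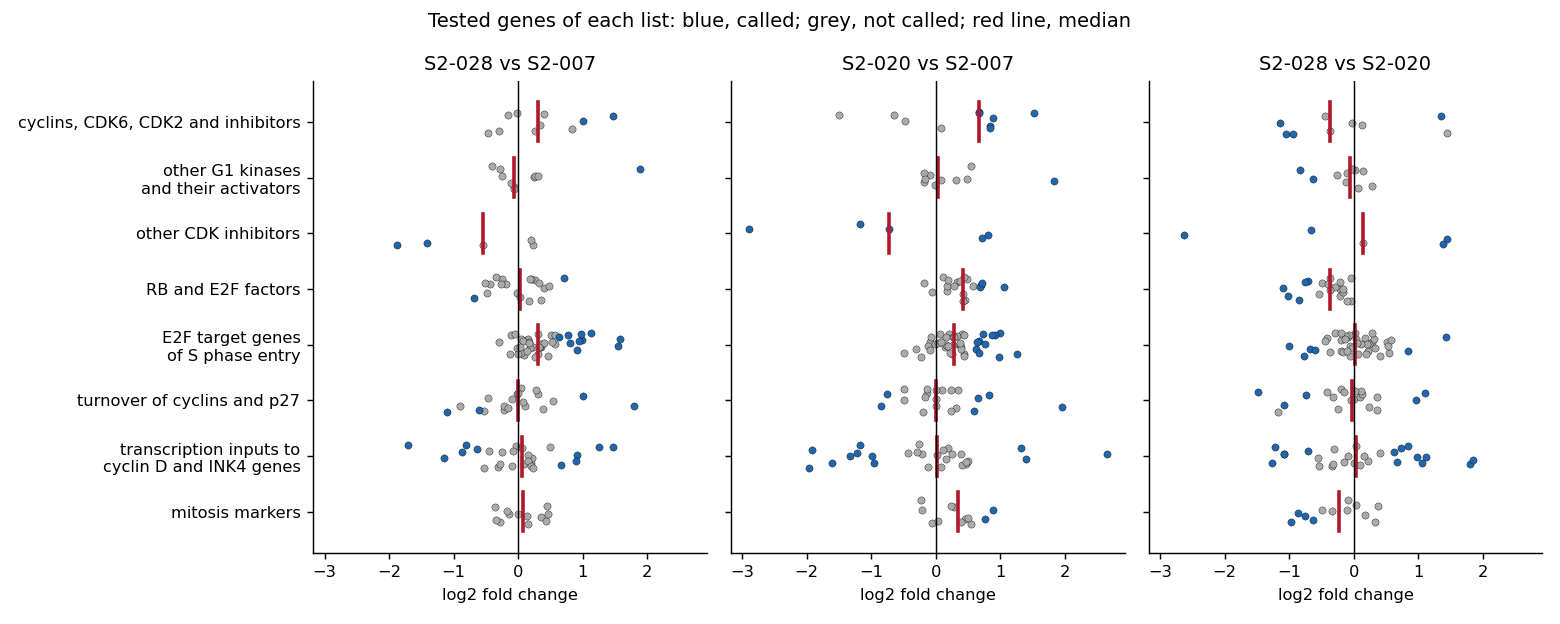
log2 fold change of every tested gene (points, spread vertically for legibility) of 8 lists in the 3 comparisons, with called genes in blue and the median of each list as a red line. The G1 cyclins, kinases and inhibitors have a median of 0.67 in S2-020 against S2-007, and all points of the RB and E2F factors lie left of 0 in S2-028 against S2-020.

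Among 11 other G1 kinases and their activators, CDK4 was the single gene called in either comparison with S2-007. CDC25A, the phosphatase that activates CDK2, and CCNA2, its S phase cyclin, were called lower in S2-028 than in S2-020, at -0.82 and -0.62 on the log2 scale (edgeR adjusted p = 2.65e-08 and 1.71e-07). CCNA2 fell under the fold change threshold, at -0.57, without S2-020 replicate 2 or S2-028 replicate 3, and with 2 other scalings. It was not called against a 1.5-fold change (edgeR adjusted p = 0.512). Of 20 genes for the turnover of cyclins and p27, CUL4A and CUL4B, scaffolds of ubiquitin ligases, had opposite changes in S2-028 against S2-007, at -1.10 and 1.01 (edgeR adjusted p = 1.63e-11 and 3.05e-11). AMBRA1, the adaptor through which D-type cyclins are degraded, was called lower than in S2-007 in both other lines. It was at -0.75 in S2-020 (edgeR adjusted p = 2.97e-09) and at -0.61 in S2-028 (edgeR adjusted p = 2.82e-06). The value in S2-028 was not called against a 1.5-fold change (edgeR adjusted p = 0.776). It fell under the fold change threshold, at -0.57 and -0.52, without S2-007 replicate 2 or S2-028 replicate 2. Between S2-028 and S2-020 AMBRA1 was at 0.11 (edgeR adjusted p = 0.332). SKP2, the adaptor for p27, was called higher in S2-020 than in S2-007, at 0.60 (edgeR adjusted p = 4.56e-06). SKP2 fell under the fold change threshold with 2 other scalings and, at 0.56 and 0.51, without S2-007 replicate 2 or S2-020 replicate 1. It was also under it, at 0.58, when at least 10 counts were required in every library. Against a 1.5-fold change SKP2 was not called (edgeR adjusted p = 0.774). AMBRA1 averaged 76.0 ± 2.92 CPM in S2-007, 46.1 ± 2.32 CPM in S2-020 and 49.7 ± 6.15 CPM in S2-028. In this list 2 genes were called higher and 2 lower in S2-028 against S2-007, 4 and 2 in S2-020 against S2-007, and 2 and 3 in S2-028 against S2-020. As shares of the list these are 10%, 20% and 10% higher and 10%, 10% and 15% lower. Over all genes tested the shares were 10.2%, 9.57% and 12.1% higher and 8.19%, 12.1% and 10.1% lower.

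Of 28 transcription factors and regulators known to act on the cyclin D and INK4 genes, 27 were tested in each comparison. In S2-020 against S2-007, 3 were called higher and 8 lower, or 11.1% and 29.6%, beside 9.57% and 12.1% of all genes tested. JUN, an AP-1 subunit known to act on CCND1, had a log2 fold change of 2.65 (edgeR adjusted p = 2.09e-16), and ETS1 of 1.32 (edgeR adjusted p = 4.85e-12). ID1, an inhibitor of the helix-loop-helix factors that act on CDKN2A, was at -1.91 and TCF7L2, a mediator of WNT signalling, at -1.33 (edgeR adjusted p = 7.11e-15 and 1.13e-12). In S2-028 against S2-007, 5 were called higher and 5 lower, with JUN at 1.47 and ID1 at -1.14 (edgeR adjusted p = 1.62e-12 and 1.06e-11). In S2-028 against S2-020, 9 were called higher and 5 lower, with FOSL2, another AP-1 subunit, at 1.85, JUN at -1.21 and SMAD3, a mediator of TGF-beta signalling, at 0.99 (edgeR adjusted p = 3.16e-13, 4.67e-13 and 6.60e-12). MYC was called in no comparison, with log2 fold changes of 0.20, 0.47 and -0.30 (edgeR adjusted p = 0.0138, 2.38e-07 and 0.000102).

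Neighbouring genes within 500 kb of each of the 10 genes were described to show whether a change was shared along the chromosome. Over all genes tested, 10.2% were called higher in S2-028 than in S2-007 and 8.19% lower. The shares were 9.57% and 12.1% in S2-020 against S2-007, and 12.1% and 10.1% in S2-028 against S2-020. Around CDK6, 0 of 15 tested neighbours were called higher in S2-028 than in S2-007, and their median log2 fold change was 0.018 against 1.48 for CDK6. Against S2-020, 2 of 14 were called higher in S2-028 and 12 of 14 were above 0, with a median of 0.23 against 1.36 for CDK6. Around CCND3, 1 of 21 was called higher in S2-020 than in S2-007, with a median of 0.049 against 1.52. CCND1, at 0.84 in S2-020 against S2-007, was opposite in sign to the median of its 15 neighbours, -0.67. Of these, 10 were below 0 and 5 above, with 0 called higher and 4 lower. LTO1, which overlaps CCND1, was at 0.022. CDK2 differed in this respect, since 23 of its 50 neighbours were called higher in S2-028 than in S2-007, with a median of 0.60, and 18 of 50 in S2-020 than in S2-007, with a median of 0.37, while 3 and 5 were called lower. Its nearest tested neighbours, PMEL and RAB5B, were at 0.72 and 0.61 in S2-028 against S2-007 and at -1.23 and 0.31 in S2-020 against S2-007. Around CDKN1B, 10 of 22 were called higher in S2-020 than in S2-007, with a median of 0.42, and around CCNE1, 0 of 8. CDKN2A had MTAP, its nearest tested neighbour on one side, at -1.121 in S2-020 against S2-007. DNA copy number was not measured, and its part in these changes was not tested.

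The genes most like each of the 4 members of widest range were found by the Pearson correlation of log2 CPM over the 9 libraries and 28018 genes. These 9 points are 3 lines with 3 libraries each, so r mostly reflects the order of 3 means. For CCND3 the nearest were ZNF627 (r = 0.9984) and KIFC3 (r = 0.9956), and 649 genes had r above 0.95. KIFC3 averaged 91.7, 232 and 117 CPM in the order S2-007, S2-020, S2-028. For CDK6 they were CUL4B (r = 0.9968) and MAP9 (r = 0.9941), with 376 genes above 0.95, and CUL4B averaged 64.6, 66.2 and 130 CPM in the same order. For CCND2 the nearest was DET1 (r = 0.9572) and for CDKN2B LOC107983966 (r = 0.9412), at counts too few to read a likeness from.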

How the data were processed

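RNA was sequenced from cells of 3 lines, with 3 libraries per line assigned by their own labels. Per the labels, reads of strand-specific libraries were filtered with Trimmomatic 0.39, aligned with BWA 0.7.17 to GRCh38.p14 and handled with SAMtools 1.12. The authors deposited counts of reads per gene as whole numbers, for 42717 genes. A further 2 rows name no gene and were left out, as were 18 deposited columns of normalized signal. The counting tool and its use of strand are not given in the sources used here. Since BWA is not a spliced aligner, reads that span a junction may be missing.

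Counts were tested in R 4.3.3 with edgeR 4.0.16 (filterByExpr at 10 counts per gene and 15 over all libraries, TMM, glmQLFit and glmQLFTest), with the 6 libraries of both lines in each fit and Benjamini-Hochberg adjustment over all genes tested. The SE is the log2 fold change divided by the square root of F, and 95% intervals use the degrees of freedom of the fit. TMM factors of printed CPM come from all 9 libraries, so their ratio can differ slightly from a fold change, and log2 CPM use a prior count of 2. The floor of 3 counts covers counting error only. Counts were also simulated with the same spread for every gene and 200 changed genes, none of them among the lowest counts. There, 79.8%, 74.7% and 72.4% of genes changed 2-fold were called in the comparisons S2-028 against S2-007, S2-020 against S2-007 and S2-028 against S2-020. In the data the spread differs between genes, so these rates check the code and are not the power for a given gene. DESeq2 1.42.0 and other settings were alternatives.

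The 10 genes and the other lists were chosen with earlier results of these data known. The text names all 10 genes, at most 4 called genes of each other list in each comparison, those with the smallest adjusted p, the nearest tested neighbour on either side, and, for the 4 genes of widest range, the 2 genes most like them. MKI67, MYC and the genes that overlap a member were named after their values had been seen. Of the gene identifiers, 42539 matched the RefSeq table of GRCh38.p14, from which coordinates and upstream sequences come. Transcripts, overlaps and lengths come from GENCODE (MANE Select), and figures were drawn with matplotlib.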

Additional observations from a re-analysis of the deposited data

How the results depend on the processing

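Other settings left the number of called members at 2 in S2-028 against S2-007, between 4 and 7 in S2-020 against S2-007 and between 4 and 5 in S2-028 against S2-020. The number of genes called over the whole table moved most when the test was set against a 1.5-fold change, to 2977, 3639 and 3638 in the comparisons S2-028 against S2-007, S2-020 against S2-007 and S2-028 against S2-020, where the tests against no change called 4858, 5769 and 5788 (a stricter null hypothesis by construction). Under that test CCNE1 (0.67) and CDKN1B (0.67) lost their call in S2-020 against S2-007. With 1 library left out, the genes called ranged from 4641 to 4828, from 5488 to 5791 and from 5507 to 5723. The sign turned for some log2 fold changes that were called in no setting. With 1 library left out, CCNE2 in S2-028 against S2-007 ranged from -0.0995 to 0.115. CDKN2B in the same comparison, at -0.30 with all 6 libraries, ranged from -3.29 to 0.273. The value of -3.29 came without S2-028 replicate 2, which had 25 counts, where the other libraries of S2-028 had 0 and 2. CDKN2A in S2-028 against S2-020 ranged from -0.152 to 0.121. It was also 0.035 with upper-quartile factors and 0.066 with total counts alone, an alternative chosen after seeing the data, and the cause was not tested. CDKN2A in S2-020 against S2-007 without S2-020 replicate 1 (-0.63) and CCND2 in S2-028 against S2-020 without S2-020 replicate 3 (2.21) became called. Among the results of the other genes named, 15 lost their call in at least 1 setting and 0 turned. Scaling moved the median log2 fold change of all genes by less than 0.1 in every comparison. Deviations of same-numbered libraries of different lines correlated between -0.0312 and 0.23, and those of differently numbered libraries between -0.23 and 0.199. These ranges overlap, so they do not settle whether the replicate numbers pair the libraries. A replicate block gave 4865, 5650 and 5716 genes and 2, 6 and 4 members called. With that block, the edgeR adjusted p of CCND1 in S2-028 against S2-007 fell under 0.05. Its change stayed under the fold change threshold, so it was still not called. CCND2 and CDKN2B had the fewest counts of the 10 genes, at most 38 and 25 in a library.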
